A study of Mus musculus with 3 samples.

Results

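The 10 genes described here encode core members of the BCL2 family, the proteins that set whether a mitochondrion keeps or loses its outer membrane during apoptosis. They were taken as a given list and comprised 3 survival genes (Bcl2, Bcl2l1 and Mcl1), 3 effector genes (Bax, Bak1 and Bok) and 4 genes of the BH3-only class (Bad, Bcl2l11, Bmf and Bbc3). RefSeq isoform identifiers were matched to gene symbols, which placed 19 isoforms on these 10 genes, out of 34535 isoforms in the table and 24225 genes with a symbol. All 10 genes had a value in every library, and none of their isoform estimates was marked as failed.

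The cells were mouse granulosa cells, the somatic cells that line the ovarian follicle and surround the oocyte. They came from wild-type C57BL/6 females aged 21 to 28 days after birth. All mice had received 4 IU of equine chorionic gonadotropin (eCG), which drives follicle growth, so the 0 h cells were eCG-primed and not unstimulated. The 4 h and 12 h groups had then been given 5 IU of the human hormone (hCG), a ligand of the luteinizing hormone receptor that starts ovulation and luteinization, and the 0 h group was taken before hCG. Follicles of whole ovaries were punctured to release the cells. RNA came from 3 mice at each time and each time is 1 library, so no test was possible and every difference below is a difference between 2 libraries.

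In background terms, Bax and Bak1 proteins form the pores that release cytochrome c, the survival proteins bind and restrain them, and BH3-only proteins engage the survival proteins or the effectors when a cell is stressed or loses growth factor support. Granulosa cells are known for dying by apoptosis when a follicle becomes atretic, while those of a preovulatory follicle go on to form the corpus luteum. Transcript levels do not give the amounts or the phosphorylation state of these proteins, on which much of their control rests.

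Levels are the deposited FPKM, which count fragments per kilobase of a transcript and correct for sequencing depth, summed over the isoforms of a gene, and may be compared between genes because they are per length. The interval beside a level is built from the deposited bounds, which lie 2 deposited standard deviations from the value. It describes the estimate within 1 library and not the spread between mice. A log2 fold compares the later with the earlier library after 1 FPKM was added to both, which understates the fold of low genes. A gene is called higher or lower where that fold reached 2 and at least 1 of the 2 libraries had 1 FPKM or more, which is a rule of size. A second description counts the genes whose intervals in the 2 libraries did not meet.

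Most of the family stayed within 2-fold of its 0 h level. Of the 10 genes, 0 were called higher and 1 was called lower at 4 h against 0 h (Bcl2l1), while across all genes tested 10.2% were called higher and 7.03% lower. None (0 higher, 0 lower) was called at 12 h against 0 h, beside 3.16% and 2.55% of all genes. Between 12 h and 4 h, 1 was called higher at 12 h (Bmf) and 0 lower, beside 4.83% and 7.88% of all genes. With counts this small the shares of the 10 genes cannot be set apart from those of the table as a whole.

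By intervals that did not meet, Mcl1 was higher and Bcl2l1 lower at 4 h against 0 h, where 22.1% of all genes were higher and 17.4% lower by that measure. Mcl1 and Bmf were higher at 12 h against 0 h, and no member was lower, beside 8.3% and 8.61% of all genes. Bcl2l1 and Bmf were higher and Mcl1 was lower at 12 h against 4 h, beside 14.1% and 20.5% of all genes. Only these 3 genes of the 10 had any pair of intervals that did not meet. The share of all genes with any such pair is not given here, so this count cannot be set apart from the table as a whole. The median log2 fold of the 10 genes was -0.19 at 4 h against 0 h, 0.04 at 12 h against 0 h and 0.19 at 12 h against 4 h, where the medians of all genes tested were -0.01, -0.02 and 0.01.

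**Figure D1:**
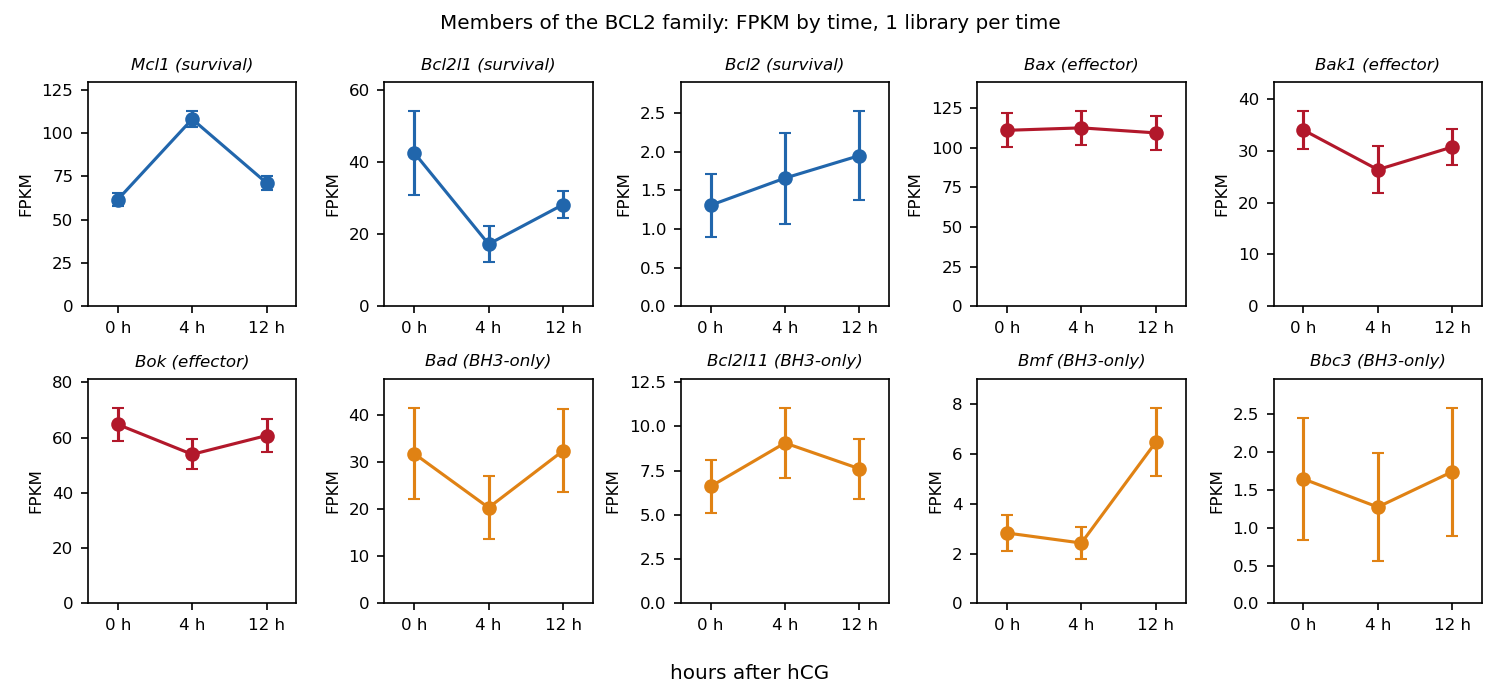
FPKM of each of the 10 genes (vertical axes, from 0, a scale for each gene) at 0, 4 and 12 h after hCG (horizontal axis), 1 library per time, with bars for the intervals built from the deposited bounds; blue marks survival genes, red effectors and orange the BH3-only class. Mcl1 stood highest at 4 h (108 FPKM), Bcl2l1 lowest at 4 h (17.3 FPKM) and Bmf highest at 12 h (6.48 FPKM), while Bax lay between 109 and 113 FPKM.

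The starts of transcription bear on which Bcl2l1 isoform was listed and on whether the promoters share letters. For the 3 genes with intervals that did not meet, the sequences below are therefore stretches around transcription start sites, though not around every RefSeq start. Each runs from 250 bases before to 50 bases after a RefSeq start site (build GRCm38.p6), is given 5′ to 3′ on the strand of the gene, and has in capitals any match to the motifs that were searched.
Bcl2l1, start at 152831728, chr2:152831679-152831978, minus strand: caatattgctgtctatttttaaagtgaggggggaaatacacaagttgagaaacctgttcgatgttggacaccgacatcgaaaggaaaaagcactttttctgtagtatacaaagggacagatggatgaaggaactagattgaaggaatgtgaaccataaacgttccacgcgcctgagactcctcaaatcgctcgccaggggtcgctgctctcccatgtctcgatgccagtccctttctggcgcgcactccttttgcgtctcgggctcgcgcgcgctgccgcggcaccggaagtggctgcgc
Bcl2l1, start at 152830717, chr2:152830668-152830967, minus strand: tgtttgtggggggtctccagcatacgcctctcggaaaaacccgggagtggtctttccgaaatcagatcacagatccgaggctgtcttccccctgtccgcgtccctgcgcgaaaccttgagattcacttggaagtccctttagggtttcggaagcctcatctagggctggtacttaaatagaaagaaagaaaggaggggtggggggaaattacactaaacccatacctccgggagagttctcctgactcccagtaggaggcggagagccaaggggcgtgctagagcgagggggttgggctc
Mcl1, chr3:95658471-95658770, plus strand: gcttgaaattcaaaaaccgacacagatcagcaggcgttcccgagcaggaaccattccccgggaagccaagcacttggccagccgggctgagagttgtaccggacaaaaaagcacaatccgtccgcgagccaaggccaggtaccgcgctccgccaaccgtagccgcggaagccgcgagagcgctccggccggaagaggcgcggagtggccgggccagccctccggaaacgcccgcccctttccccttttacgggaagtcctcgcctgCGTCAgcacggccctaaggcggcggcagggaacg
Bmf, chr2:118549637-118549936, minus strand: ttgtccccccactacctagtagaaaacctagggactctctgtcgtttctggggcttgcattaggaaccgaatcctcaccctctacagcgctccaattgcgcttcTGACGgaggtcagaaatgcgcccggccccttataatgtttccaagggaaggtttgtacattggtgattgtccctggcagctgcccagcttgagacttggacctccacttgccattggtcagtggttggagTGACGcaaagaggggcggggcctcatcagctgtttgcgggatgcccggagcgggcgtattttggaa

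The motifs searched on both strands were TGACGTCA, the full cyclic AMP response element, and its core TGACG, which TGACGTCA contains; GCGGGGGCG, bound by EGR factors; TGAGTCA with its reverse complement TGACTCA, bound by AP-1; and TGTTTAC, bound by forkhead factors. The 10 genes had 18 RefSeq promoters. Neither Bcl2l1 promoter printed above held a match. Further RefSeq promoters of Bcl2l1 (start at 152828489) and Bmf (starts at 118544587 and 118547599) were not printed and held no match. Mcl1 held the reverse complement CGTCA at position 16, counted from the start site, and Bmf held TGACG at positions -146 and -16. The core was found in 4 of the 18 promoters (22.2%), 1 each of Bbc3, Bcl2, Bmf and Mcl1, and in 20.8% of all 32851 promoters. The EGR and forkhead motifs were each found in 2 of the 18 promoters (11.1%), in the genes Bcl2l11 and Bbc3, and in 2.91% and 3.65% of all promoters. The full element (1.79% of all promoters) and the AP-1 motif (5.2%) were found in 0 of the 18. These matches describe letters and not binding.

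Among the survival genes, Mcl1, a short-lived protein that many cells need continuously, was the most abundant in every library. It is a gene of 3 exons on chromosome 3 (95658788 to 95663176, plus strand, GRCm38), and its 1 isoform in the table was at 61.6 FPKM at 0 h (58.0 to 65.1), 108 FPKM at 4 h (103 to 113) and 71.1 FPKM at 12 h (67.3 to 75.0). The 4 h library stood apart from both others, and the 12 h library lay slightly above 0 h with intervals that did not meet. The 4 h level was 1.75 times that of 0 h (log2 fold 0.80), short of the 2-fold rule, and the log2 fold at 12 h against 4 h was -0.60. About 2638, 4134 and 2655 fragments lay behind these values at 0, 4 and 12 h, the most of the 10 genes. With libraries scaled to a common sum the log2 fold at 4 h against 0 h was 0.50, still above 0.

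Bcl2l1, which encodes BCL-XL, moved the other way at 4 h. It lies on chromosome 2 (152780668 to 152831728, minus strand) and was at 42.7 FPKM at 0 h (31.0 to 54.3), 17.3 FPKM at 4 h (12.3 to 22.3) and 28.2 FPKM at 12 h (24.5 to 32.0). The 4 h library was below both others without overlap, and the 12 h and 0 h intervals overlapped. The log2 fold was -1.26 at 4 h against 0 h, -0.58 at 12 h against 0 h and 0.68 at 12 h against 4 h. The gene's isoforms gave about 1319, 461 and 731 fragments at 0, 4 and 12 h. The lower 4 h sum did not come from every isoform, and when the isoform with the highest mean stood for the gene the log2 fold at 4 h against 0 h was 0.32, of the opposite sign.

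The transcripts matched to those isoforms differ in where they begin and not in their coding exons. The isoform NM_009743 matches a GENCODE transcript whose first exon lies at 152831603 to 152831728, and its promoter is the first printed above. NM_001289716 and NM_001289717 both match a transcript that begins 51 bases downstream of the second printed start site. Its first exon lies at 152830386 to 152830666. A further RefSeq start of the gene, at 152828489, lies 2177 bases from the nearest matched start and was not assigned to an isoform. The matched transcripts hold the same coding exons, with 233 codons. NM_001289716 and NM_001289717 share a matched transcript but were estimated separately, so how they differ from each other is not known here. The remaining isoform, NM_001289739, had no matched transcript and was listed at 0 in each library.

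The isoforms matched to the transcript with the downstream first exon were together at 31.3 FPKM at 0 h (23.7 to 38.8). They were at 2.84 FPKM at 4 h (0 to 5.75) and 2.50 FPKM at 12 h (0.536 to 4.47). Their 0 h interval lay far above the other 2, and the 12 h level had not returned towards it. They made up 73.3%, 16.4% and 8.86% of the gene's FPKM at 0, 4 and 12 h. NM_009743 was at 11.4 FPKM at 0 h (2.55 to 20.2), 14.4 FPKM at 4 h (10.4 to 18.5) and 25.7 FPKM at 12 h (22.5 to 28.9), so it was highest at 12 h, apart from both earlier libraries. Its share was 26.7%, 83.6% and 91.1%. The 0 h estimates of the isoforms draw on shared reads and the summed interval takes them as independent, so the split at 0 h is known less well than the sum of fragments.

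Bcl2, the founding survival gene of the family, was scarce throughout. It lies on chromosome 1 (106538178 to 106714274, minus strand) and was at 1.31 FPKM at 0 h (0.903 to 1.71), 1.66 FPKM at 4 h (1.07 to 2.25) and 1.95 FPKM at 12 h (1.37 to 2.53). The 3 intervals overlapped, and about 122, 126 and 143 fragments lay behind them. The isoform NM_009741, with 236 codons, held 100%, 86.4% and 84.9% of the level. NM_177410, with 199 codons and known as the beta form without the membrane anchor, was listed at 0 FPKM at 0 h, 0.226 FPKM at 4 h and 0.294 FPKM at 12 h, with lower bounds of 0 throughout. Exons of Bcl2 share 558 of 9157 bases with the antisense gene D630008O14Rik, and the sources used here do not give strandedness.

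**Figure D2:**
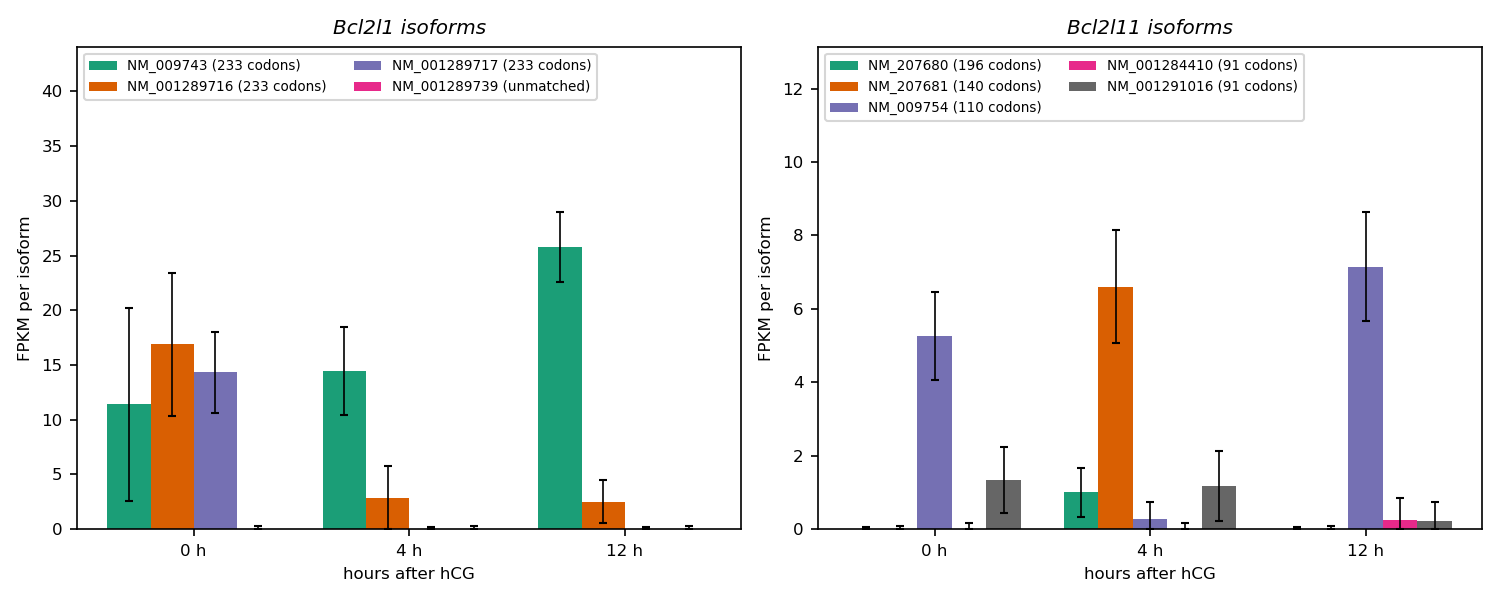
FPKM of each RefSeq isoform of Bcl2l1 (left) and Bcl2l11 (right) at 0, 4 and 12 h after hCG, 1 library per time; bars start at 0, error bars are the deposited bounds, and the legend gives the coding length of the matched GENCODE transcript. For Bcl2l1 the isoforms NM_001289716 and NM_001289717 stood high at 0 h and NM_009743 stood highest at 12 h, and for Bcl2l11 the 110-codon isoform led at 0 h and 12 h and the 140-codon isoform at 4 h.

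Among the effector genes, none was called in any comparison and every pair of intervals overlapped. Bax, on chromosome 7 (45461697 to 45466898, minus strand), was the most abundant of the 10 genes in each library, at 111 FPKM at 0 h (100.4 to 122), 113 FPKM at 4 h (102 to 123) and 109 FPKM at 12 h (98.8 to 120). Its whole range over the 3 libraries was 0.04 on the log2(FPKM + 1) scale. That was narrower than all but 0.474% of 13500 genes with at least 1 FPKM in a library, whose median range was 0.56. Each interval of Bax was wider than the range of its values, so this rank is finer than the estimates resolve. That flatness holds on the deposited scale: with libraries scaled to a common sum the log2 fold of Bax was -0.29 at 4 h against 0 h and 0.35 at 12 h against 4 h. Of its 867 exon bases, 192 are shared with the annotated gene Gm45808 on the same strand.

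Bak1, the close partner of Bax in pore formation, lies on chromosome 17 (27019810 to 27029009, minus strand) and was at 34.0 FPKM at 0 h (30.3 to 37.7), 26.3 FPKM at 4 h (21.9 to 30.8) and 30.7 FPKM at 12 h (27.2 to 34.1). Bok, an effector-like protein first cloned from rat ovary, lies on chromosome 1 (93685660 to 93695764, plus strand) and was at 64.7 FPKM at 0 h (58.7 to 70.7), 53.9 FPKM at 4 h (48.4 to 59.4) and 60.7 FPKM at 12 h (54.9 to 66.5). Both genes had their lowest value at 4 h, with log2 folds at 4 h against 0 h of -0.36 and -0.26. Bok ranked behind Bax at 0 h and behind Bax and Mcl1 at 4 h and 12 h. Bak1 shares 614 of 2387 exon bases with Ggnbp1 on the opposite strand, which was at 16.2, 14.4 and 15.5 FPKM at 0, 4 and 12 h.

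In the BH3-only class, Bmf was the gene that stood apart, and late. BMF protein is held by dynein light chain at the cytoskeleton and is known for cell death on loss of attachment. The gene lies on chromosome 2 (118528757 to 118549687, minus strand) and was at 2.83 FPKM at 0 h (2.11 to 3.55), 2.42 FPKM at 4 h (1.77 to 3.08) and 6.48 FPKM at 12 h (5.10 to 7.85). The 12 h library was above both others without overlap, while 4 h and 0 h overlapped. The 12 h level was 2.67 times that of 4 h and 2.29 times that of 0 h. On the log2(FPKM + 1) scale these were 1.13, which was called, and 0.97, which fell just short of the rule because the pseudocount weighs on low genes. About 168, 128 and 334 fragments lay behind the 3 values.

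Bcl2l11, which encodes BIM, a strong killer known to be switched on by forkhead factors in several cell types, lies on chromosome 2 (128126038 to 128162547, plus strand). Its sum was 6.60 FPKM at 0 h (5.09 to 8.12), 9.06 FPKM at 4 h (7.08 to 11.0) and 7.60 FPKM at 12 h (5.91 to 9.30), and the 3 intervals overlapped. In fragments the gene had about 197, 357 and 201 at 0, 4 and 12 h. The 4 h library therefore had more fragments relative to the others than its FPKM shows, because the isoforms listed there are longer.

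The isoforms listed for Bcl2l11 differed at 4 h. The isoform with 110 codons (NM_009754, the short form BimS) was at 5.27 FPKM at 0 h (4.06 to 6.47), 0.287 FPKM at 4 h (0 to 0.734) and 7.15 FPKM at 12 h (5.67 to 8.63). The isoform with 140 codons (NM_207681, the long form BimL) was at 0.000914 FPKM at 0 h, 6.60 FPKM at 4 h (5.06 to 8.15) and 0.000917 FPKM at 12 h. The isoform with 196 codons (NM_207680, the extra-long form BimEL) was listed at 0 FPKM at 0 h and 12 h and at 0.999 FPKM at 4 h (0.339 to 1.66). The 2 remaining isoforms, both matched to the same transcript of 91 codons, were together no more than 20.2% of the sum. The 110-codon isoform held 79.8%, 3.17% and 94.0% of the gene, and the 140-codon isoform held 72.9% at 4 h. Values such as 0.000914 FPKM correspond to far less than 1 fragment, as does the 0.0014 FPKM listed for NM_001289717 of Bcl2l1 at 4 h and 12 h, so the estimates lie at the edge of what the method can return. The shares are therefore those the deposited estimates assign, and reads that tell the isoforms apart were not analysed here.

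What separates the 140-codon from the 110-codon message is an exon of 90 bases, or 30 codons, at chr2:128128925-128129014 on the plus strand. It is known to carry the region by which BIM binds dynein light chain. The first sequence gives the junctions of the longer message with that exon in capitals and 15 bases of its neighbours in lower case, and the second gives the same neighbours joined directly in the shorter message (transcripts of GENCODE M21).
Bcl2l11, 140 codons: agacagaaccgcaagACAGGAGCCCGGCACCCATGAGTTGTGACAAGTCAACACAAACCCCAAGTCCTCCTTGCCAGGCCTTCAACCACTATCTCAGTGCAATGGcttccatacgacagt
Bcl2l11, 110 codons: agacagaaccgcaagcttccatacgacagt
The matched transcripts also differ at their 3′ ends, with lengths of 3538 and 2490 bases. The table does not show which reads separated them.

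To set these isoform differences beside the table, the share of each isoform in its gene was compared over genes with several isoforms and at least 5 FPKM in both libraries. This comparison was chosen after the values of both genes had been seen. An isoform share differed by at least 50 points in 8.55% of 2725 such genes at 4 h against 0 h, in 6.69% of 2854 at 12 h against 0 h and in 7.89% of 2763 at 12 h against 4 h. Bcl2l1 was among them at 4 h and at 12 h against 0 h, by 56.8 and 64.4 points for NM_009743. Bcl2l11 was among them at 4 h against 0 h (-76.6 points for NM_009754) and at 12 h against 4 h (90.8 points), and its largest difference at 12 h against 0 h was -17.5 points. Bad was compared and was not among them. Its largest differences were 4.22 points at 4 h and 3.13 at 12 h against 0 h, and 1.08 at 12 h against 4 h. Bcl2 lay below the floor of 5 FPKM, and the other members had 1 isoform. With so few members compared, these counts cannot be set apart from the shares over all genes.

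Bad, which binds BCL-XL unless phosphorylated by kinases such as AKT, lies on chromosome 19 (6941861 to 6951899, plus strand). It was at 31.8 FPKM at 0 h (22.1 to 41.5), 20.3 FPKM at 4 h (13.6 to 27.0) and 32.4 FPKM at 12 h (23.6 to 41.1). The 4 h library was the lowest and overlapped with both others, with log2 folds of -0.62 at 4 h against 0 h and 0.65 at 12 h against 4 h. The 162-codon isoform NM_001285453 held 100%, 95.8% and 96.9% of the level, and the 204-codon isoform NM_007522, which has another first exon, was at 0, 0.856 and 1.01 FPKM. Bad shares 517 of 1576 exon bases with Gpr137 on the opposite strand. Gpr137 followed the same course, at 25.9, 17.0 and 25.1 FPKM at 0, 4 and 12 h, and its part in the Bad values was not tested.

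Bbc3, the p53 target that encodes PUMA, lies on chromosome 7 (16308393 to 16318205, plus strand) and was at 1.65 FPKM at 0 h (0.843 to 2.45), 1.27 FPKM at 4 h (0.561 to 1.99) and 1.74 FPKM at 12 h (0.897 to 2.59). The intervals overlapped, and with about 35, 24 and 33 fragments no difference between the libraries was detectable at this depth.

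Ranked by level, the 10 genes kept a similar order, in which Mcl1 stood higher and Bcl2l1 lower at 4 h. At 0 h, Bax led, Bok and Mcl1 followed with overlapping intervals, then came Bcl2l1, Bak1 and Bad with overlapping intervals, Bcl2l11, and finally Bmf, Bbc3 and Bcl2, of which Bbc3 overlapped with both others. At 4 h the intervals of Mcl1 and Bax overlapped at the top, Bok came next, and Bak1, Bad and Bcl2l1 followed with overlapping intervals, Bcl2l1 now the lowest of them. At 12 h, Bax stood alone at the top, Mcl1 lay above Bok without overlap, and Bad, Bak1 and Bcl2l1 overlapped. Bmf, near the bottom of the order at 4 h, overlapped with Bcl2l11 at 12 h.

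Ratios within a library do not depend on how libraries are scaled. The 3 survival genes held 29.5% of the summed FPKM of the 10 genes at 0 h (26.7 to 32.2), 36.0% at 4 h (34.0 to 37.9) and 28.9% at 12 h (27.2 to 30.6). The 4 h share was above both others without overlap. The effectors held 58.6%, 54.7% and 57.3%, and the BH3-only class held 12.0%, 9.37% and 13.8%. Summed survival FPKM over summed effector FPKM was 0.503 at 0 h (0.438 to 0.569), 0.658 at 4 h (0.601 to 0.715) and 0.505 at 12 h (0.463 to 0.546), again highest at 4 h without overlap. These sums weight each transcript alike and say nothing of protein.

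Inside that ratio Mcl1 and Bcl2l1, each summed over its isoforms, ran in opposite directions at 4 h. Mcl1 over Bax was 0.554 at 0 h (0.492 to 0.617), 0.959 at 4 h (0.858 to 1.06) and 0.650 at 12 h (0.578 to 0.722). Bcl2l1 over Bax was 0.384 at 0 h (0.273 to 0.495), 0.154 at 4 h (0.107 to 0.200) and 0.258 at 12 h (0.216 to 0.301). The 4 h value stood apart from both others in each ratio, above them for Mcl1 and below them for Bcl2l1. With the isoform of the highest mean in place of the sum, Bcl2l1 over Bax was 0.103, 0.128 and 0.235 at 0, 4 and 12 h, and the 4 h value was then above that of 0 h. Bcl2 over Bax was 0.0118, 0.0147 and 0.0178, with overlapping intervals. Survival over BH3-only was 2.46 at 0 h (1.83 to 3.10), 3.84 at 4 h (2.99 to 4.68) and 2.10 at 12 h (1.69 to 2.51), and the 0 h and 4 h intervals overlapped.

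**Figure D3:**
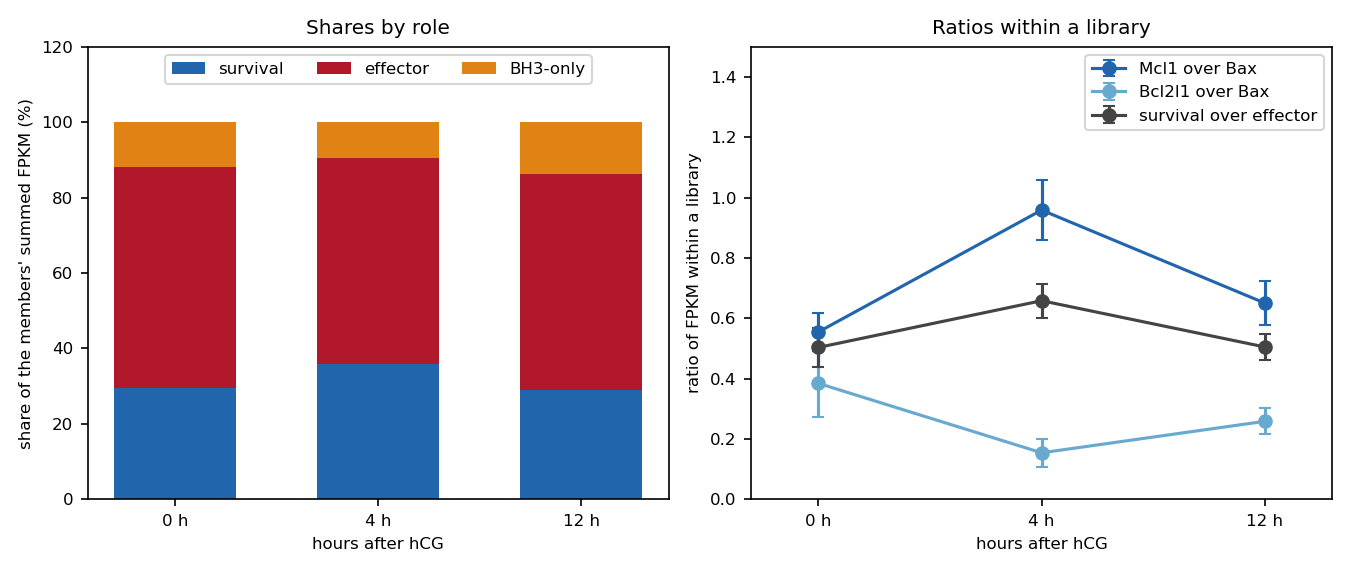
Left, stacked shares (%) of the summed FPKM of the 10 genes held by survival genes, effectors and the BH3-only class at 0, 4 and 12 h after hCG; right, ratios of FPKM within each library with intervals built from the deposited bounds. The survival share was 36.0% at 4 h against 29.5% at 0 h, and at 4 h Mcl1 over Bax reached 0.959 while Bcl2l1 over Bax stood at 0.154.

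The rest of the family was described from a list of 16 further genes. At 4 h against 0 h, 8 of them passed the floor of 1 FPKM, 0 were called higher and 1 lower. Here and in the lists that follow, counts this small cannot be set apart from the shares over all genes given above. That gene was Bnip3, a mitochondrial protein induced by hypoxia and known for mitophagy, at 55.6, 9.95 and 36.1 FPKM at 0, 4 and 12 h (log2 fold -2.37 at 4 h against 0 h). Its relative Bnip3l was at 38.3, 21.0 and 30.0 FPKM, with 4 h below both others without overlap. Bcl2l2, which encodes the survival protein BCL-W, was at 17.2, 26.5 and 23.1 FPKM, with both later libraries above 0 h without overlap. Bcl2l10, a family member known from oocytes, was at 40.3, 35.3 and 49.9 FPKM, and Bid, the BH3-only protein cut by caspase-8, at 9.59, 7.64 and 13.0 FPKM.

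In the same list, 0 of 9 genes were called in either direction at 12 h against 0 h, and at 12 h against 4 h 2 of 9 were called higher and 0 lower. These were Bnip3 and also Bcl2a1b, which was at 1.85 FPKM at 12 h against 0.152 FPKM at 4 h with overlapping intervals. Near-identical copies of Bcl2a1 can share reads, so that value is uncertain, and Bcl2a1a and Bcl2a1c were listed at 0 throughout with Bcl2a1d at 0.128, 0.283 and 0.143 FPKM. Bcl2l12 was at 27.9, 20.1 and 28.7 FPKM, Bcl2l13 at 16.3, 12.5 and 14.7 FPKM and Bik at 1.62, 1.70 and 0.925 FPKM. Pmaip1, which encodes NOXA, the BH3-only partner of MCL1, was at 0.487, 0.544 and 0.491 FPKM. Hrk, Bcl2l14 and Bcl2l15 were at or below 0.322 FPKM in each library.

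Downstream of the mitochondrion, 0 of 14 genes of the apoptosome and caspase list were called higher and 1 lower at 4 h against 0 h (Endog, 3.68 against 9.51 FPKM, with overlapping intervals). None was called at 12 h against 0 h. Apaf1, the scaffold of the apoptosome, was at 8.88, 16.4 and 7.02 FPKM at 0, 4 and 12 h, highest at 4 h without overlap, and was the 1 gene called lower at 12 h against 4 h. Casp6, a caspase, was at 46.7, 67.4 and 76.3 FPKM, with both later libraries above 0 h without overlap. Cycs, the cytochrome c gene, was listed at 1.94, 1.70 and 0.785 FPKM, with 12 h below 0 h without overlap. Ubiquitous genes such as Gapdh (0.910, 1.02 and 0.894 FPKM) and Ppia (1.13, 0.155 and 1.30 FPKM) were also near 0. Such low values may therefore not give the true level of a gene. Of the inhibitor of apoptosis genes 0 of 5 were called in any comparison, and Birc5, which encodes survivin and also acts in mitosis, was at 72.5, 41.4 and 71.6 FPKM, lowest at 4 h without overlap.

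Among death receptors and their adaptors, 1 of 8 was called higher and 0 lower at 4 h against 0 h, beside 10.2% and 7.03% of all genes. The gene was Tnfrsf1a, the main receptor for tumour necrosis factor, at 31.5, 91.5 and 39.2 FPKM at 0, 4 and 12 h. It was the 1 gene called lower at 12 h against 4 h, and 0 of 7 were called at 12 h against 0 h. Fas was low, at 0.937, 1.66 and 0.694 FPKM, and Fasl was listed at 0, 0.0505 and 0 FPKM.

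Of p53 and its targets, 2 of 12 were called higher and 0 lower at 4 h against 0 h, beside 10.2% and 7.03% of all genes, and Bbc3 was not called. Cdkn1a, the p21 cell cycle inhibitor, was at 6.85, 58.6 and 15.8 FPKM at 0, 4 and 12 h. It was called higher at 4 h and at 12 h against 0 h, the 1 gene of 12 called in the second comparison, and it was the 1 called lower at 12 h against 4 h. Perp was at 15.3, 33.6 and 18.7 FPKM. Trp53 itself was at 64.2, 77.3 and 77.5 FPKM with overlapping intervals, and Ccng1 was at 28.0, 14.2 and 21.9 FPKM. The list's median log2 fold at 4 h against 0 h was 0.38, beside -0.01 for all genes tested.

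Of 18 regulators and partners of the 10 genes, 2 were called higher and 1 lower at 4 h against 0 h, beside 10.2% and 7.03% of all genes. Pim1, a kinase that phosphorylates BAD, was at 4.88, 24.0 and 12.7 FPKM at 0, 4 and 12 h and was the 1 called higher at 12 h against 0 h. Stat3 was at 16.8, 43.9 and 25.2 FPKM, a call at 4 h whose intervals overlapped. Foxo1, a forkhead factor known to switch on Bcl2l11 in other cell types, was at 257, 105 and 203 FPKM, lowest at 4 h. Vdac3, a channel of the outer mitochondrial membrane, was at 38.4, 20.2 and 33.8 FPKM, also lowest at 4 h. None of the 18 was called at 12 h against 4 h. Dynll1 and Dynll2, the dynein light chains that hold BIM and BMF, were at 52.6, 53.1 and 61.8 FPKM and at 107, 65.4 and 87.4 FPKM.

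**Figure D4:**
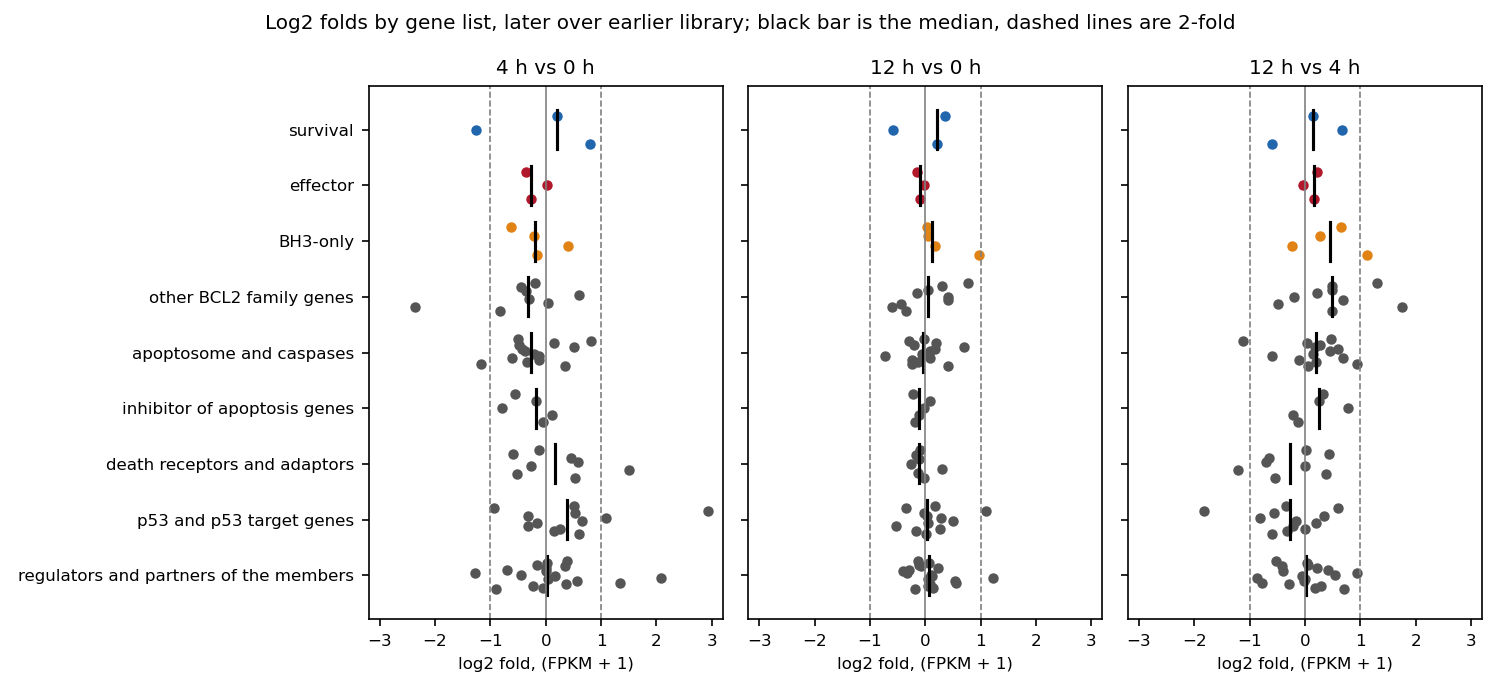
Log2 folds of FPKM + 1 (horizontal axes), later over earlier library, for the members of each list that passed the floor of 1 FPKM (rows), in each of the 3 comparisons; coloured points are the 10 genes by role, grey points the other lists, black bars list medians and dashed lines the 2-fold rule. Among the 10 genes only Bcl2l1 at 4 h against 0 h and Bmf at 12 h against 4 h lie outside the dashed lines, and Cdkn1a (log2 fold 2.92) and Bnip3 (-2.37) lie farthest out at 4 h against 0 h.

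For the 3 genes with the widest range, the protein-coding genes with the nearest course were found among 10051 genes with at least 5 FPKM in a library, by Euclidean distance between centred log2(FPKM + 1) values over the 3 libraries. Nearest to Bcl2l1 were Spc25 (57.2, 23.3 and 37.5 FPKM at 0, 4 and 12 h), Bloc1s5 and Coro7, at distances of 0.0131, 0.0272 and 0.0302. Among those nearest to Bmf were Rasa4 (6.08, 5.43 and 13.0 FPKM) and Cfd, at 0.0164 and 0.0722. Nearest to Mcl1 were Sgpl1 (30.8, 54.4 and 35.7 FPKM), Sh3pxd2b and Aplp2, at 0.00122, 0.00813 and 0.0171. Within a distance of 0.1 lay 38 genes for Bcl2l1, 5 for Bmf and 125 for Mcl1. With 3 points per course such likeness is common and is given as a description.

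All 8 granulosa markers were present in every library, but they did not hold one level. Inha was at 6986, 7163 and 3742 FPKM at 0, 4 and 12 h, while Fshr (133, 15.5 and 32.1 FPKM), Foxl2 (149, 44.3 and 102 FPKM), Cyp19a1 (198, 30.0 and 104.5 FPKM) and Hsd17b1 (1065, 151 and 445 FPKM) were called lower at 4 h against 0 h. The median log2 fold of the 8 was -1.32 in that comparison. Without Inha the other 7 summed to 2204, 810 and 1392 FPKM, lowest at 4 h, as Bcl2l1 was. Nr5a2 (304, 164 and 196 FPKM) and Esr2 (102, 54.3 and 106 FPKM) were also lowest at 4 h. Amh went the other way, at 252, 351 and 406 FPKM, with intervals that did not meet. The part of these markers in the Bcl2l1 value was not tested. Markers of other cell types were also present. Summed over each marker list, at 0, 4 and 12 h, the 8 granulosa markers gave 9190, 7973 and 5134 FPKM, the 10 oocyte markers 232, 183 and 324 FPKM, the 8 theca and stroma markers 349, 417 and 400 FPKM and the 6 smooth muscle markers 126, 191 and 187 FPKM. The 8 leukocyte markers gave 56.2, 86.7 and 91.4 FPKM, the 6 neutrophil markers 1.66, 24.4 and 3.78 FPKM, the 8 endothelial markers 17.4, 41.5 and 15.9 FPKM, the 7 surface epithelium markers 54.3, 134 and 78.4 FPKM and the 5 measured erythroid markers 540, 445 and 377 FPKM. The neutrophil marker Ngp was listed at 0 throughout, S100a9 and Camp at 0 at 0 h, and the T cell marker Cd3e at 0 at 4 h and 12 h. The neutrophil, endothelial, surface epithelium, theca and stroma, and smooth muscle sums were highest at 4 h, as Mcl1 was. Single markers of the last 2 lists were mixed at 12 h against 4 h. Of the theca and stroma markers 5 were higher and 3 lower, Cyp17a1 (59.01 against 114.2 FPKM) among the lower. Of the smooth muscle markers 3 were higher and 3 lower, Tagln (79.76 against 101.5 FPKM) among the lower. The median log2 folds were 0.15 and 0.015. The part of these 5 marker lists in the Mcl1 value was not tested. The oocyte and leukocyte sums were highest at 12 h, as Bmf and Bcl2l10 were. The leukocyte sum was mostly Lyz2 (45.2, 56.5 and 73.0 FPKM), while Cd68 (5.39, 22.7 and 12.5 FPKM) and Adgre1 were highest at 4 h. The median log2 fold of the leukocyte list at 12 h against 4 h was 0.002. The part of oocytes and leukocytes in the Bmf and Bcl2l10 values was not tested. In bulk RNA, fewer cells of a type and less RNA per cell cannot be told apart.

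The libraries held about 13400000, 11900000 and 11600000 fragments at 0, 4 and 12 h, read from the spacing of low values, and 1 fragment on a transcript of 2000 bases was worth 0.0419, 0.0467 and 0.0479 FPKM. The summed FPKM was larger at 4 h (621365) than at 0 h (501561) and 12 h (472904). On the deposited scale 59.3% of the genes called at 4 h against 0 h were higher and 38.0% at 12 h against 4 h. With libraries brought to a common sum these shares were 36.7% and 70.7%, and with a common protein-coding sum 42.5% and 62.0%, as the medians of all genes moved to -0.29 and 0.37, and to -0.21 and 0.27. Median-of-ratios scaling, whose factors lay between 0.986 and 1.01, gave 58.4% and 41.4%. Under these scalings Mcl1 stayed above 0 and Bcl2l1 below 0 in log2 fold at 4 h against 0 h, Bmf stayed above 0 at 12 h against both, and Bax changed sign in 1 or more comparisons.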

How the data were processed

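Granulosa cells from mice before and 4 h and 12 h after hCG were compared by mRNA sequencing, with 1 library per time. The values are isoform FPKM that the authors deposited in 1 table, each with a lower and an upper bound, a standard deviation and a status. The submitters' processing notes name the genome build mm10 and, in no order, TopHat2 2.1.1, CASAVA 1.8 and Cufflinks 2.2.1, with no role for each. The level of the bounds, strandedness, read length and whether RNA was pooled are not given in the sources used here. The bounds equal the value plus or minus 2 standard deviations, cut at 0. Over all isoforms, 12 estimates were marked as failed and had no usable bounds.

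Isoforms were matched to symbols through RefSeq (34169 of 34535; GRCm38.p6, the same assembly as mm10), then through GENCODE M21 (193), and 173 unmatched ones were left out. FPKM were summed per gene over 5452 genes with several isoforms and the remaining single-isoform genes, 24225 in all. The distances of the bounds from the values were squared, summed and rooted, which assumes independent isoforms. Folds used a pseudocount of 1 FPKM, a floor of 1 FPKM in 1 of the 2 libraries and a threshold of 2. With 1 library per time no test was run and no p-value was computed. Exons and coordinates (1-based, GRCm38) came from GENCODE M21, promoters from RefSeq. A protein table was not used here, so the planned protein features are not reported. Depth was read from whole-fragment steps between low FPKM of single-isoform genes over 1000 bases long. Of the values under 10 fragments, 70.9%, 70.0% and 71.8% lay within 0.1 of a whole number at 0, 4 and 12 h. The depth was chosen to make this share largest. The 20% that chance gives holds for a depth set in advance and is therefore not a like comparison. Fragments per gene follow from these depths and the transcript lengths and are approximate. The intervals cover the estimate within a library only.

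The text names all 10 genes, the list of other BCL2 family genes, up to 4 genes per further list with the largest folds in a comparison, and the 3 genes nearest in course to each of the 3 widest-ranging members, except for items not reported here. Fasl, Trp53, Dynll1, Dynll2, Gapdh, Ppia and the marker genes were named outside that rule after their values were seen. The members, lists and rules were chosen with earlier results of these data known. The 2-fold rule and the depth estimate were tested on simulated libraries. The isoform estimates, intervals, ratios and isoform shares were not. Alternatives were pseudocounts of 0.1 and 5 FPKM, no floor or a floor of 5 FPKM, 3 scalings, the isoform with the highest mean instead of the sum, folds of 1.5 and 4, and intervals apart. Python 3.11.15, NumPy 2.4.6, pandas 2.3.3 and matplotlib 3.10.9 were used.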

Additional observations from a re-analysis of the deposited data

How the results depend on the processing

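At 4 h against 0 h, where 1 of the 10 genes was called, 3 were called at a fold of 1.5 (Mcl1 higher, Bcl2l1 and Bad lower) and 0 at a fold of 4. With the isoform of the highest mean (the main isoform) instead of the sum, the 1 gene called was Bcl2l11 (lower) and the log2 fold of Bcl2l1 turned to 0.32, of the other sign. At 12 h against 0 h, where 0 were called, 1 was called with a pseudocount of 0.1 FPKM, with either common-sum scaling and at a fold of 1.5 (Bmf higher each time), and 1 with the main isoform (Bcl2l1 higher). At 12 h against 4 h, where 1 was called (Bmf), 0 were called with a pseudocount of 5 FPKM or a fold of 4, 3 with the libraries set to a common FPKM sum (Bcl2l1, Bad and Bmf higher), 2 with the main isoform (Bcl2l11 and Bmf higher) and 4 at a fold of 1.5 (Mcl1 lower, Bcl2l1, Bad and Bmf higher). Over all genes the counts at 4 h against 0 h were 2287 as reported, 1126 with a pseudocount of 5 FPKM, 5006 at a fold of 1.5 and 593 at a fold of 4. At 12 h against 0 h they were 743 as reported, 1252 with a pseudocount of 0.1 FPKM, 310 with 5 FPKM, 2018 at a fold of 1.5 and 172 at a fold of 4. At 12 h against 4 h they were 1682 as reported, 773 with a pseudocount of 5 FPKM, 4261 at a fold of 1.5 and 397 at a fold of 4. With the main isoform, the 0 h survival share was 22.8%, the effector share 64.4%, Bcl2l1 over Bax 0.103, survival over effector 0.354 and survival over BH3-only 1.79, and at 4 h the BH3-only share was 6.89% and survival over BH3-only 5.28, since isoforms were dropped. Of 180 recomputed log2 folds of the 10 genes, 160 moved by less than their intervals, 19 moved by more and 1 turned its sign after having been called. Folds that had not been called also changed sign under some alternatives. With the main isoform, Bcl2l11 at 4 h against 0 h went from 0.40 to -2.28 and Bcl2l1 at 12 h against 0 h from -0.58 to 1.11. Other sign changes were in Bcl2l11 at 12 h against 4 h, Bad at 12 h against 0 h and Bax in each comparison. The causes were not tested beyond what each alternative itself changes. No paired analysis was possible because each time has 1 library, and for the same reason no library could be left out. Bbc3, Bcl2 and the minor isoforms are limited by depth.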
